A study of Mus musculus with 8 samples.

Results

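The genes described here encode 8 proteins of immature to mature recirculating B cells, namely Ms4a1, Fcmr, Fcrla, Cr2, Fcer2a, Cd37, Tnfrsf13c and Cd40. They were chosen by gene symbol, all 8 symbols were found, and they are 8 of the 52550 genes in each table. They serve to follow late B cell RNA in cells sorted at stages that come before these genes are used at full level. RNA was sequenced from bone marrow cells of C57BL/6J mice that were either wild type (WT) or lacked lactoferrin throughout the body (Lf-/-), with no treatment in either genotype. Controls were littermates of matched age, and the age of the mice is not given in the sources used here. Both cell types were sorted by flow cytometry, pro-B cells as B220+CD43+IgM-. That gate should leave out cells with IgM on their surface, which include the immature and mature B cells that these genes mark. The groups were WT pre-pro-B (2 libraries), WT pro-B (1 library), Lf-/- pre-pro-B (2 libraries) and Lf-/- pro-B (2 libraries). Another WT pro-B sample of the series was not analysed here. The study's methods give 3 mice a group, which differs from the number of libraries, and neither they nor the labels say which library came from which animal or whether cells were pooled. The p-values given below therefore measure only the spread between these samples, which may be technical.

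B cells arise in the bone marrow by ordered rearrangement of their immunoglobulin genes, and most surface receptors that let them respond to antigen and to T cells are gained late, after a complete immunoglobulin reaches the surface. Survival of the cells that leave the marrow depends on the receptor for the cytokine BAFF, and contact with helper T cells is read by CD40. Receptors for immunoglobulins and for complement fragments set how strongly the antigen receptor signals.

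The stretch before the transcription start is shown for the 4 members Fcmr, Fcrla, Tnfrsf13c and Fcer2a. Sequences are from RefSeq (GRCm38.p6), are given 5′ to 3′ on the strand of the gene, and end at or shortly before the start of the annotated gene. Entries were found for Fcmr, Fcrla, Cr2, Cd37, Fcer2a and Tnfrsf13c, with 8 windows in all. Capitals mark the E box CAGCTG or the NF-kB core, GGG and CC with any 5 bases between them, read on either strand. The windows are chr1:130865527-130865668 on the plus strand for Fcmr, and on the minus strand chr1:170927584-170927833 for Fcrla, chr15:82224381-82224630 for Tnfrsf13c and chr8:3694176-3694424 for the first start of Fcer2a.
Fcmr: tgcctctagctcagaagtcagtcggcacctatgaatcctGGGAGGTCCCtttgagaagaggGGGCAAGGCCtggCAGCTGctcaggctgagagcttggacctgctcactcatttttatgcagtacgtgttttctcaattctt
Fcrla: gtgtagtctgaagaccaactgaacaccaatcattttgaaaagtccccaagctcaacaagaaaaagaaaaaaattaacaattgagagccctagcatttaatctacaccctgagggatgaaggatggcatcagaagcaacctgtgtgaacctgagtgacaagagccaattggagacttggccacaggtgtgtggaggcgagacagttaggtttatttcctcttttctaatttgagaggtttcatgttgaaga
Tnfrsf13c: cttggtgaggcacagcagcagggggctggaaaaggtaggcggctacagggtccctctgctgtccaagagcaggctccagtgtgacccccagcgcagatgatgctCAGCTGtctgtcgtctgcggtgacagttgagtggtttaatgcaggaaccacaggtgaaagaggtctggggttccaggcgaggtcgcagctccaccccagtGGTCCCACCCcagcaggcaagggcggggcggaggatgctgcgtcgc
Fcer2a: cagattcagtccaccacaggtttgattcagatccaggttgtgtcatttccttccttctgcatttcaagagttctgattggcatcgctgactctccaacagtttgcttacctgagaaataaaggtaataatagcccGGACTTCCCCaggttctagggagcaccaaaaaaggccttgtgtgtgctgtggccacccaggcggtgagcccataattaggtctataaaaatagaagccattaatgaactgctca

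The NF-kB core was found in 4 of the 8 windows of 300 bases (Cr2, Fcer2a, Fcmr and Tnfrsf13c). It was found in 50.8% of all 32851 promoters of that length. The E box was found in 3 of the 8 windows (Fcer2a, at a start inside the gene, Fcmr and Tnfrsf13c) and in 16.3% of all promoters. The PU.1 core GAGGAAGT was found in 1 window, that of Cd37, 25 bases before a start inside the gene, and in 3.2% of all promoters. The EBF1 core CCCNNGGG, present in 13.7% of all promoters, and the octamer core ATGCAAAT, present in 1.74%, were in 0 of the 8 windows. In Fcmr the pair of NF-kB cores overlaps neither with each other nor with the E box, whereas the matches of Cr2 overlap one another. A match says only that the letters are there.

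Ltf, the deleted gene, was at 2143 and 2731 FPKM in WT pre-pro-B, 2650 FPKM in WT pro-B, 88.2 and 149 FPKM in Lf-/- pre-pro-B and 168 and 96 FPKM in Lf-/- pro-B cells. All Lf-/- libraries were below all WT libraries, as the labels say. FPKM counts fragments relative to transcript length and to all fragments of the library, so a level can be compared between genes but depends on what else the library holds. One library stood apart. Lf-/- pre-pro-B replicate 2 had 12172 genes above 0, against 19477 to 20250 in the others, and its correlation across genes with the other libraries was 0.783 to 0.813, against 0.915 to 0.957 among the rest. The members' fits, the order of the levels and the likeness are therefore given below with and without it. So are the lists' counts and medians over both stages, the ratio to early B lineage genes and ranges relative to Cd79a plus Cd79b. Mean log2 differences relative to Cd79a plus Cd79b are given only with it. The depth read from the steps between low values, rounded, was 14000000 fragments for WT pro-B, 11000000 and 12000000 for the WT pre-pro-B pair, 11000000 and 16000000 for the Lf-/- pro-B pair and 11000000 for Lf-/- pre-pro-B replicate 1. In the library that stood apart the steps were weaker than the minimum used, a strength of 5.3 against a minimum of 7 that was chosen after seeing the values, so no depth was read for it. The weakest of the libraries given a depth, Lf-/- pro-B replicate 1, was at 7.5.

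Genes of neutrophils, which the sorts were not meant to collect, held 38.7% and 38.6% of the summed FPKM at the pre-pro-B stage and 52.8% at the pro-B stage of WT mice, against 37.7% and 25.3% and then 34.6% and 39.5% in the same order for Lf-/- mice. The most abundant of the 18 was S100a8, and none was at 0 in any library.

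Fcmr, the receptor that binds the Fc part of IgM, reached the highest value of any member, in Lf-/- pre-pro-B replicate 2. It was at 16.2 and 8.3 FPKM in WT pre-pro-B, 9.73 FPKM in WT pro-B, 77.7 and 190 FPKM in Lf-/- pre-pro-B and 117 and 109 FPKM in Lf-/- pro-B cells. The lowest Lf-/- value was 4.78 times the highest WT value. In bulk samples like these, fewer cells of a type and less RNA per cell cannot be told apart. With both stages in one limma model (stage as covariate, Benjamini-Hochberg adjustment over 10793 genes), the difference of Lf-/- minus WT was 3.33 on the log2(FPKM + 1) scale (standard error 0.39, adjusted p = 0.021), and Fcmr ranked 7 of all genes by p. Without Lf-/- pre-pro-B replicate 2 it was 3.02 (adjusted p = 0.00508), and over all alternatives tried the adjusted p was 0.00192 to 0.441. This scale understates the change of low genes. The gene (ENSMUSG00000042474) lies on chr1:130865669-130880791 of GRCm38 and overlaps no other annotated gene.

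Fcrla, an Fc receptor-like protein that stays inside the cell and is made mainly by B cells, was at 24.2 and 11.1 FPKM in WT pre-pro-B, 7.39 FPKM in WT pro-B, 90.1 and 98.5 FPKM in Lf-/- pre-pro-B and 65.1 and 38.9 FPKM in Lf-/- pro-B cells. The genotypes did not overlap, and in both genotypes the pro-B libraries were below the pre-pro-B libraries. Over both stages the log2 difference was 2.51 (standard error 0.35, adjusted p = 0.0399 from limma), and 2.5 (adjusted p = 0.0154) without Lf-/- pre-pro-B replicate 2. Scaling the libraries by their median ratio gave 2.17 and ended the call (adjusted p = 0.0978), and the adjusted p was 0.00667 to 0.614 over all alternatives. The gene (ENSMUSG00000038421) spans chr1:170917576-170927583, and a processed pseudogene on the same strand, Gm2962, lies within it, at 3.16 to 6.96 FPKM, so that some fragments could have been assigned to either.

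Fcer2a encodes CD23, the low-affinity receptor for IgE on mature B cells. It was at 1.01 and 1.23 FPKM in WT pre-pro-B, 1.11 FPKM in WT pro-B, 6.72 and 0.204 FPKM in Lf-/- pre-pro-B and 12.5 and 7.84 FPKM in Lf-/- pro-B cells. It was the only member in which the genotypes overlapped, since Lf-/- pre-pro-B replicate 2 was below every other library while the remaining Lf-/- libraries were above every WT library. Over both stages the log2 difference was 1.27 (standard error 0.65, adjusted p = 0.689 from limma). Without Lf-/- pre-pro-B replicate 2 it was 2.12 (standard error 0.3, adjusted p = 0.00743), the lowest of a range that reached 0.951 over all alternatives. The WT levels correspond to about 25 to 35 fragments per library, and those of the 3 higher Lf-/- libraries to 170 to 310. The gene (ENSMUSG00000005540) spans chr8:3681737-3694175.

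Ms4a1 and Cd37 encode membrane proteins with 4 transmembrane segments. Ms4a1, the gene of CD20, was at 3.37 and 2.78 FPKM in WT pre-pro-B, 1.51 FPKM in WT pro-B, 19.3 and 35.5 FPKM in Lf-/- pre-pro-B and 17 and 11.5 FPKM in Lf-/- pro-B cells. The genotypes did not overlap, with the lowest Lf-/- value 3.42 times the highest WT value. The log2 difference over both stages was 2.68 (standard error 0.33, adjusted p = 0.0273 from limma) and was 2.45 (adjusted p = 0.00508) without Lf-/- pre-pro-B replicate 2, with 0.00414 to 0.441 as the adjusted p over all alternatives. Ms4a1 (ENSMUSG00000024673) spans chr19:11249675-11266241, where an antisense gene, 4930526L06Rik, covers it and was listed at 0 in all 7 libraries.

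Cd37, a tetraspanin of B cells that other leukocytes also make, was the highest member in every WT library. It was at 29.1 FPKM in both WT pre-pro-B libraries, 22.2 FPKM in WT pro-B, 49.7 and 77.8 FPKM in Lf-/- pre-pro-B and 60.4 and 53.3 FPKM in Lf-/- pro-B cells. These ranges did not overlap either, but the distance was smaller, with the lowest Lf-/- value 1.71 times the highest WT value. The log2 difference of 1.17 (standard error 0.29) did not pass the adjustment (adjusted p = 0.275 from limma), nor did the value of 1.03 (adjusted p = 0.253) without Lf-/- pre-pro-B replicate 2 or that of any alternative (adjusted p from 0.0526 to 0.833). Cd37 (ENSMUSG00000030798) spans chr7:45233632-45239115 and shares 13 bases with Tead2, which was below 0.1 FPKM in every library.

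Cr2 encodes the complement receptors CD21 and, by splicing in the mouse, CD35, which are found on mature B cells and follicular dendritic cells. It was the lowest member in all libraries but one. Cr2 was listed at 0 and at 0.00523 FPKM in WT pre-pro-B, 0.0162 FPKM in WT pro-B, 0.232 and 1.09 FPKM in Lf-/- pre-pro-B and 0.382 and 0.366 FPKM in Lf-/- pro-B cells. All Lf-/- values were above all WT values, yet only Lf-/- pre-pro-B replicate 2 reached 1 FPKM, so Cr2 was below the filter and was not in the limma model. Its levels correspond to at most 1.4 fragments in a WT library and to 16, 27 and 36 fragments in the Lf-/- libraries with a known depth. For a single gene, an exact permutation test over 3 WT and 4 Lf-/- libraries cannot give a two-sided p below 0.0571. No fold is given, because one WT library is at 0. Cr2 (ENSMUSG00000026616) spans chr1:195136811-195176716.

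Tnfrsf13c and Cd40 encode receptors of the tumor necrosis factor receptor family. Tnfrsf13c, the receptor for BAFF, was at 9.23 and 5.14 FPKM in WT pre-pro-B, 2.89 FPKM in WT pro-B, 40.8 and 25.4 FPKM in Lf-/- pre-pro-B and 28.8 and 20.3 FPKM in Lf-/- pro-B cells. No Lf-/- value was below 2.2 times the highest WT value. The log2 difference over both stages was 2.32 (standard error 0.35), just short of the adjusted threshold (adjusted p = 0.0526 from limma). It passed without Lf-/- pre-pro-B replicate 2, at 2.55 (adjusted p = 0.00602), the lowest of a range that reached 0.755 over all alternatives. It also passed in limma with at least 1 FPKM in every library (adjusted p = 0.0109). With the replicate number as a block it passed at 2.42 (adjusted p = 0.0457 from limma). The gene (ENSMUSG00000068105) spans chr15:82221743-82224369.

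Cd40, through which helper T cells activate B cells, is also made by dendritic cells and macrophages. It was at 1.71 and 1.08 FPKM in WT pre-pro-B, 0.337 FPKM in WT pro-B, 2.84 and 19.2 FPKM in Lf-/- pre-pro-B and 3.72 and 2.48 FPKM in Lf-/- pro-B cells. The value of Lf-/- pre-pro-B replicate 2 was far above the rest, and the lowest Lf-/- value was 1.44 times the highest WT value. The log2 difference over both stages was 1.77 (standard error 0.54, adjusted p = 0.432 from limma) and 1.14 (standard error 0.31, adjusted p = 0.12) without that library, and no alternative passed (adjusted p from 0.0618 to 0.951). In the same library, Flt3 and Cd209a of the conventional dendritic cell list were at 38.3 and 35.1 FPKM, against 2.69 to 7.47 FPKM and 2.37 to 24 FPKM in the others. In that library 7 of the 10 genes of the list were listed at 0. Fcgr1 and Adgre1 of the monocyte and macrophage list were at 12.2 and 7.16 FPKM there, against 0.83 to 2.84 FPKM and 0.882 to 2.74 FPKM in the others. The 10 genes of that list, none of them at 0, summed to 16887 FPKM there, most of it Lyz2, and to 15494 to 24769 FPKM in the others. The part of such cells in the level of Cd40 was not tested. Cd40 (ENSMUSG00000017652) spans chr2:165055627-165072948.

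**Figure D1:**
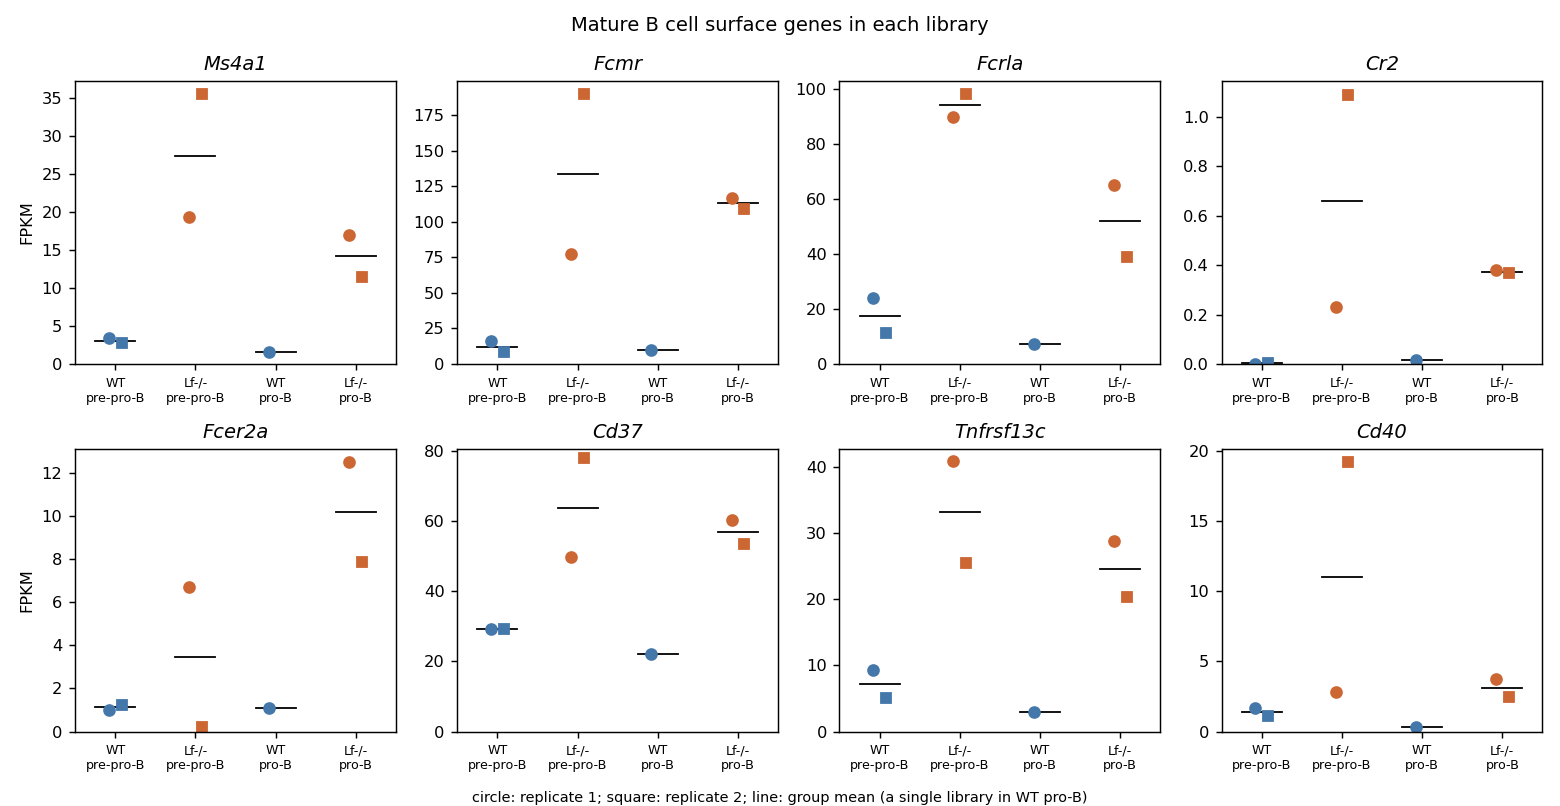
FPKM of each of the 8 genes (vertical axes from 0, one panel per gene) in the 7 libraries, with WT in blue, Lf-/- in orange, circles for replicate 1, squares for replicate 2 and a line at the group mean. Lf-/- values lie above WT values in 7 panels, and in Fcer2a the square of Lf-/- pre-pro-B, at 0.204 FPKM, lies below them.

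In the model over both stages, 3 of the 7 members tested (Fcmr, Ms4a1 and Fcrla) rose in Lf-/- cells at an adjusted p under 0.05, compared with 19 of all 10793 genes (0.176%). At an unadjusted p under 0.05, 6 of 7 members and 6.48% of all genes were higher in Lf-/- cells. Every Lf-/- value was above every WT value in 6 of 7 members and in 9.87% of all genes. The median log2 difference was 2.32 over the 7 members and 0.21 over all genes. Without Lf-/- pre-pro-B replicate 2, 5 of 7 members passed the adjusted threshold, compared with 1.13% of all genes, all 7 had no overlap between genotypes, compared with 16.3%, and the medians were 2.45 and 0.2. The adjusted calls depended on several libraries. Leaving out WT pre-pro-B replicate 1 or 2, WT pro-B replicate 1, or Lf-/- pro-B replicate 1 or 2 gave 0 members past the adjusted threshold in limma's test, where 0 to 5 genes in all were higher. In each of these cases 6 members were higher at an unadjusted p under 0.05, compared with 2.76% to 5.02% of all genes. Without Lf-/- pre-pro-B replicate 1, 2 members passed the adjusted threshold, compared with 0.52% of all genes, and 6 were higher at the unadjusted one, compared with 26.3%.

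The libraries' relative scale moved all genes. After median-ratio scaling, which divides each library by its median ratio to the geometric mean of all libraries over genes above 0 in each, the median of all genes went from 0.21 to -0.07 and that of the 7 members from 2.32 to 2.01. Of the genes with an unadjusted p under 0.05, 90.3% were higher in Lf-/- cells on the deposited scale, 53.9% with median-ratio scaling and 51.2% with quantile normalization. Fcmr (2.98, adjusted p = 0.0289) and Ms4a1 (2.39, adjusted p = 0.0309) passed with median-ratio scaling. All 7 members tested were higher in Lf-/- cells under both scalings.

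Within pre-pro-B cells the question was whether the genotypes differ before the pro-B stage. The log2 differences of Lf-/- minus WT were 3.28 for Fcmr, 2.74 for Ms4a1, 2.45 for Fcrla, 2.07 for Tnfrsf13c, 1.89 for Cd40, 1.07 for Cd37 and 0.53 for Fcer2a. With 2 libraries a group, limma gave 0 members and 0 of 9720 genes (0%) at an adjusted p under 0.05, and the members' adjusted p was 0.941 to 0.947. At an unadjusted p under 0.05, Fcmr, Ms4a1, Fcrla and Tnfrsf13c, 4 of the 7 members tested, were higher, compared with 2% of all genes. In 6 of 7 members both Lf-/- values were above both WT values, compared with 15.5% of all genes. Without Lf-/- pre-pro-B replicate 2, the difference of Fcer2a was 1.87 and that of Cd40 was 0.69, and 6 members were higher at an unadjusted p under 0.05, compared with 3.98% of all genes. Without replicate 1, all 7 members passed the adjusted threshold in either direction, as did 36.5% of all genes, and Fcer2a turned to -0.81. Leaving out WT pre-pro-B replicate 2 gave 2 members that were higher at an unadjusted p under 0.05, compared with 0.648% of all genes. In these settings the group with 1 library was assumed to vary like the other.

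The pro-B genotypes were compared without a test, as only 1 WT library is at hand. Differences were 3.41 for Fcmr, 2.69 for Tnfrsf13c, 2.61 for Fcrla, 2.58 for Ms4a1, 2.37 for Fcer2a, 1.6 for Cd40 and 1.31 for Cd37 on the log2 scale. All 7 were at least 2-fold higher in Lf-/- cells with both values above WT, compared with 12.4% of all 10793 genes. The median difference was 2.58 over these members and 0.48 over all genes. With median-ratio scaling the medians were 2.02 and 0.01, and Cd37, at 0.69, was then under 2-fold. Lf-/- pre-pro-B replicate 2 is in neither group and does not enter the members' unscaled differences, but it counts in the filter on low genes and in the scaling. Markers of T and NK cells were also higher at this stage, in 10 of the 13 past the filter by the same rule (median 1.69). Some of the 13, Klrb1c among them, reached 1 FPKM only in the Lf-/- pro-B libraries, so the filter favours this direction. The part of T and NK cells in the members' differences was not tested. The genotype differences at the 2 stages come from separate libraries, and whether they differ from each other was not tested.

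**Figure D2:**
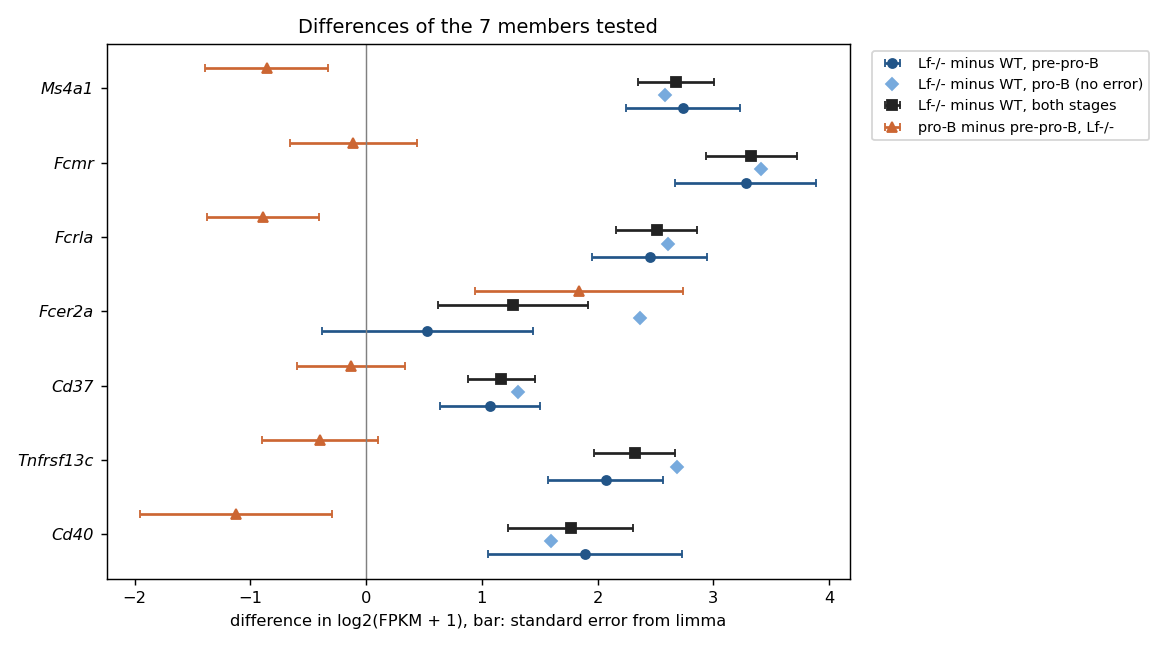
Differences in log2(FPKM + 1) of the 7 members tested (horizontal axis), with the standard error from limma as bars where there is a test and none for pro-B cells. The genotype differences lie above 0 for all 7 genes, from 0.53 to 3.41, whereas the stage differences in Lf-/- cells lie on both sides, from -1.12 to 1.84.

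Stages were compared within Lf-/- cells, which have 2 libraries at each. Pro-B minus pre-pro-B was 1.84 for Fcer2a, -1.12 for Cd40, -0.89 for Fcrla, -0.86 for Ms4a1, -0.4 for Tnfrsf13c, -0.13 for Cd37 and -0.11 for Fcmr on the log2 scale. None of the 7 members passed in limma's test at an adjusted p under 0.05, as for all 10311 genes (0%), and 0 members did so at an unadjusted p under 0.05, compared with 3.4% of all genes (351). For a single gene with 2 libraries against 2, an exact permutation test cannot go below a two-sided p of 0.333. Both pro-B values were above both pre-pro-B values in Fcer2a, compared with 26.2% of all genes, and below them in Ms4a1 and Fcrla, compared with 4.86% of all genes. Without Lf-/- pre-pro-B replicate 2, the differences of Fcmr, Cd37 and Cd40 changed sign, to 0.53, 0.19 and 0.08, and that of Fcer2a was 0.5. Without replicate 1, in contrast, Fcer2a (3.18), Cd40 (-2.32) and Ms4a1 (-1.29) passed the adjusted threshold, as did 30.8% of all genes. In WT cells, for which there is no test, pro-B minus pre-pro-B was -1.06 for Fcrla, -1.03 for Tnfrsf13c, -0.83 for Cd40, -0.7 for Ms4a1, -0.37 for Cd37 and -0.24 for Fcmr, and Fcer2a and Cr2 differed by no more than 0.02.

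The order of the levels is given first by genotype, as means that weigh the 2 stages unequally in WT cells. In WT cells the mean FPKM fell from Cd37 (26.8) over Fcrla (14.2), Fcmr (11.4), Tnfrsf13c (5.75), Ms4a1 (2.55), Fcer2a (1.12) and Cd40 (1.05) to Cr2 (0.00716). In Lf-/- cells it fell from Fcmr (123) over Fcrla (73.2), Cd37 (60.3), Tnfrsf13c (28.8), Ms4a1 (20.8), Cd40 (7.07) and Fcer2a (6.83) to Cr2 (0.518). Neighbours were not always separated. Fcrla was above Fcmr in 2 of 3 WT libraries, Fcmr above Fcrla in 3 of 4 Lf-/- libraries, and Cd40 above Fcer2a in 1 of 4. With Lf-/- pre-pro-B replicate 2 left out, a step chosen after seeing the data, the Lf-/- means fell from Fcmr (101) over Fcrla (64.7), Cd37 (54.5), Tnfrsf13c (30), Ms4a1 (15.9), Fcer2a (9.03) and Cd40 (3.01) to Cr2 (0.326), so that Fcer2a was above Cd40. Within a stage, Cd37 was first in WT cells at both, and Fcmr was first in Lf-/- cells by the means of both. In WT pro-B cells Fcmr was above Fcrla (9.73 and 7.39), as in Lf-/- cells, and in Lf-/- pro-B cells the mean of Cd37 was above that of Fcrla (56.8 and 52) but its value in only 1 of 2 libraries. The means of Cd40 were above those of Fcer2a in pre-pro-B cells of WT (1.4 and 1.12) and Lf-/- mice (11 and 3.46), and below them in pro-B cells of both (0.337 and 1.11, then 3.1 and 10.2). In Lf-/- pre-pro-B replicate 1 alone, Fcrla was above Fcmr and Fcer2a above Cd40, so part of the order at that stage rests on replicate 2. Cd37 made up 34.3%, 49.5% and 49.2% of the members' summed FPKM in the WT libraries and 17.3% to 21.9% in the Lf-/- libraries, whereas Fcmr made up 14.1% to 21.5% and 27% to 44.6%.

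To see whether late B cell RNA moved with the other RNA of the lineage, the members' summed FPKM was divided by that of 23 genes of pro-B and pre-B cells, none of them a member. The members summed to 84.8 and 58.8 FPKM in WT pre-pro-B, 45.2 FPKM in WT pro-B, 287 and 448 FPKM in Lf-/- pre-pro-B and 305 and 243 FPKM in Lf-/- pro-B cells. The early list summed to 943 and 958 FPKM in WT pre-pro-B, 448 FPKM in WT pro-B, 4024 and 3003 FPKM in Lf-/- pre-pro-B and 3535 and 1964 FPKM in Lf-/- pro-B cells. Both sums were higher in all Lf-/- libraries than in all WT libraries. Their ratio was 0.0613, 0.09 and 0.101 in the WT libraries and 0.0714, 0.0863, 0.124 and 0.149 in the Lf-/- libraries, sorted by size, so the genotypes overlapped. On the log2 scale the mean ratio of Lf-/- minus WT was 0.33, and 0.15 without Lf-/- pre-pro-B replicate 2. Leaving out each library in turn gave 0.12, without WT pre-pro-B replicate 2, to 0.51, without Lf-/- pre-pro-B replicate 1, and weighting the members equally gave 0.45. With Cd79a plus Cd79b as the denominator the sign turned, to -0.3. No test was run on the ratio.

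**Figure D3:**
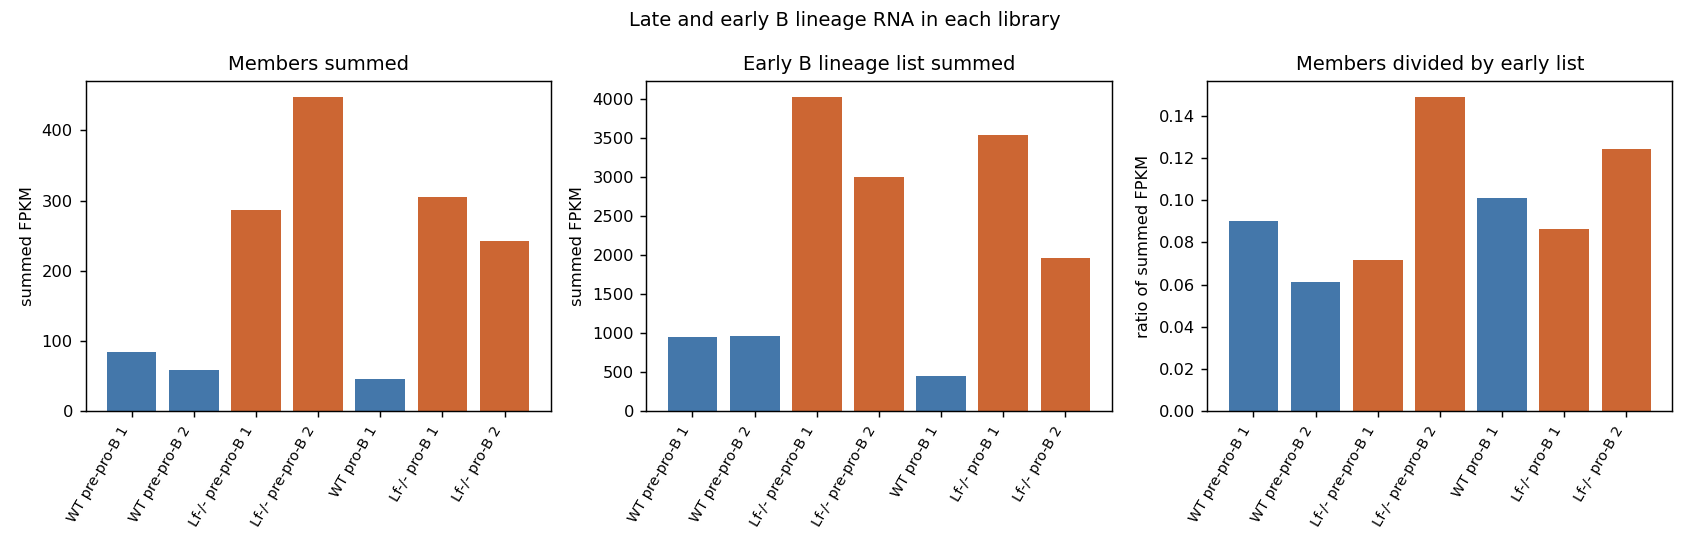
Summed FPKM of the 8 members (left), summed FPKM of the 23 early B lineage genes (middle) and their ratio (right) in each of the 7 libraries, with WT in blue and Lf-/- in orange. Both sums are higher in the Lf-/- libraries, and the ratio, from 0.0613 to 0.149, overlaps between genotypes.

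Cd79a and Cd79b encode the signaling pair of the antigen receptor. Their own log2 differences were among the largest (2.79 and 2.82), so most genes fall relative to them: every Lf-/- value was below every WT value in 83% of all 10793 genes past the filter, and in 88.2% with Lf-/- pre-pro-B replicate 2 left out, also a step chosen after seeing the data. Among the members this held for 1 of 8 (Cd37), and for 2 (Cd37 and Cd40) with that library left out, and the others overlapped between the genotypes. Ms4a1 was at 0.00736 to 0.00976 of that sum in WT and 0.0074 to 0.0183 in Lf-/- libraries, or up to 0.0099 without that library. Tnfrsf13c was at 0.016 to 0.0202 in WT and 0.0131 to 0.0169 in Lf-/- libraries, or from 0.0157 without it. Fcmr was at 0.0259 to 0.063 in WT and 0.0298 to 0.0979 in Lf-/- libraries, or up to 0.0906 without it. Cd40 was at 0.00219 to 0.00375 in WT and 0.00109 to 0.00991 in Lf-/- libraries, or up to 0.00217 without it. Cd37 was at 0.0636 to 0.144 in WT and 0.0191 to 0.0444 in Lf-/- libraries, so that it was lower relative to Cd79a and Cd79b in all Lf-/- libraries while its FPKM was higher in all of them. Cd79a itself was at 86.1 to 261 FPKM in WT and 731 to 1518 FPKM in Lf-/- libraries.

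**Figure D4:**
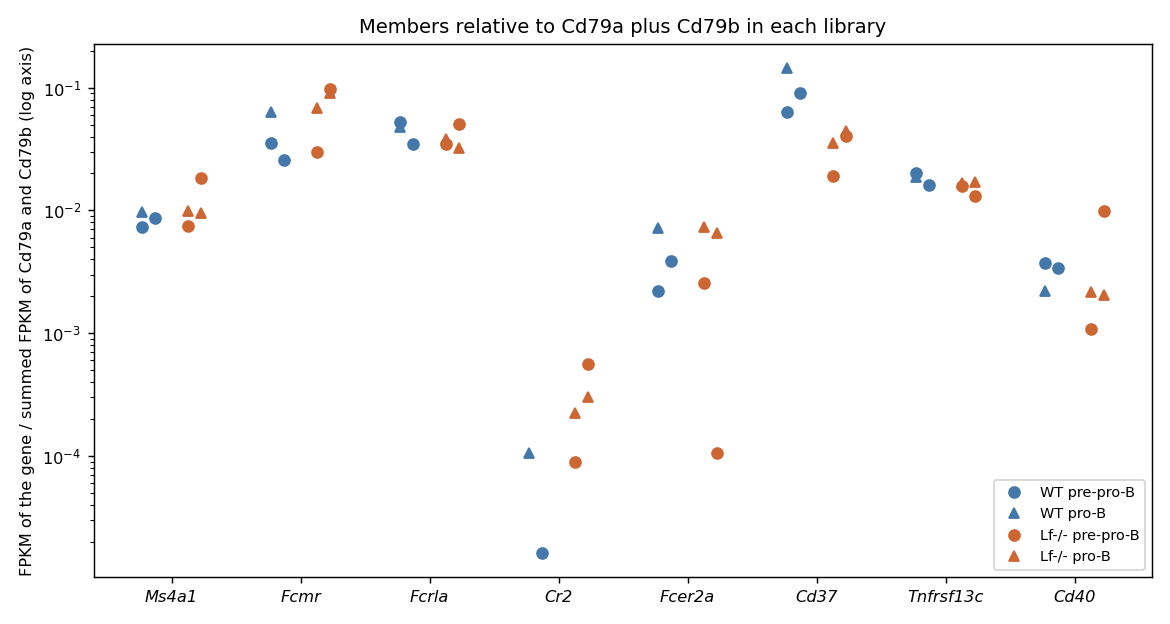
FPKM of each member divided by the summed FPKM of Cd79a and Cd79b (log axis) in each library, with WT in blue, Lf-/- in orange, circles for pre-pro-B and triangles for pro-B cells. Cr2 in WT pre-pro-B replicate 1 is at 0 and is not drawn, and the Lf-/- points of Cd37, up to 0.0444, all lie below its WT points, from 0.0636, as do those of Cd40 apart from Lf-/- pre-pro-B replicate 2, at 0.00991.

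Of 25 other genes of late B cells, 23 were tested over both stages. Their median log2 difference was 1.63, 18 had an unadjusted p under 0.05 and were higher in Lf-/- cells, and 1 passed the adjusted threshold, Ighd, the heavy chain constant region of IgD. Over all genes, 6.48% were higher at the unadjusted and 0.176% at the adjusted threshold. Ighd was at 2.59 to 3.98 FPKM in WT and 18.1 to 79.8 FPKM in Lf-/- libraries (log2 difference 3.36, adjusted p = 0.0444 from limma). Ccr7, a receptor for homing to lymph nodes (2.46), Cd72, an inhibitory coreceptor (2.37), S1pr1, the receptor for exit from tissue (2.21), and Klf2, a regulator of lymphocyte trafficking (1.15), did not pass, with adjusted p from 0.152 to 0.316. Of the early list, 22 of 23 genes were tested, with a median of 1.59, and 17 were higher at an unadjusted p under 0.05. Cd79b (2.82) and Cd79a (2.79) were among those past the adjusted threshold, and Vpreb3 (2.42) was not. When Lf-/- pre-pro-B replicate 2 was left out, 12 of the other late genes and 7 of the early list passed the adjusted threshold, with medians of 1.45 and 1.63. The share of all genes that passed and were higher also went up, to 1.13%. Ighd (2.89, adjusted p = 0.00602), Ccr7 (2.52), Cd72 (2.47), S1pr1 (2.42) and Vpreb3 (2.85) then all passed, and Klf2 (1.11, adjusted p = 0.261) did not. The late genes had differences of similar size to those of the early list, and no test of one list against the other was run.

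Genes that act with Tnfrsf13c and Cd40 (ligands, sister receptors, adaptors, kinases and NF-kB subunits) had a smaller median difference than the members, and no test between the lists was run. Of 24, 20 were tested, with a median of 0.59, and 0.54 without Lf-/- pre-pro-B replicate 2. None passed the adjusted threshold in limma's test, and 6 were higher in Lf-/- cells at an unadjusted p under 0.05, both with and without that library. Over all genes, 6.48% were higher at the unadjusted threshold with it and 8.82% without it. Traf5, an adaptor of CD40, had a log2 difference of 1.46 (adjusted p = 0.262), Birc3, a ubiquitin ligase recruited to these receptors, 1.22 (adjusted p = 0.374), and Relb, the NF-kB subunit of the noncanonical pathway, 1.03 (adjusted p = 0.437). Mcl1, a survival protein, had 0.99, and Nfkbia, the highest gene of the list, 0.53. These 5 differences were 1.19, 0.99, 0.93, 0.78 and 0.66 with that library left out.

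Lists of other cell types moved with the members in part. Of 10 MHC class II genes, which B cells, dendritic cells and monocytes share, 9 were higher in Lf-/- cells at an unadjusted p under 0.05 (median 1.8), and H2-DMb2 passed the adjusted threshold (2.25, adjusted p = 0.0382). When Lf-/- pre-pro-B replicate 2 was left out, 7 of the 10 passed it, H2-DMb2 at 2.5 among them, and all 10 were higher at an unadjusted p under 0.05 (median 1.78). They summed to 1256 to 1867 FPKM in the WT libraries and 4773 to 6363 FPKM in the Lf-/- libraries, most of it Cd74, with no gene at 0. Of 11 plasmacytoid dendritic cell genes, 10 were tested, 6 were higher at an unadjusted p under 0.05 (median 1.16), and Ly6d, which B lineage cells also make, passed (2.85, adjusted p = 0.0136). With that library left out, 5 were higher at an unadjusted p under 0.05, 2 passed the adjusted threshold, Ly6d (2.76) and Spib (2.47), and the median was 0.72. They summed to 550 and 364 FPKM in WT pre-pro-B, 254 FPKM in WT pro-B, 2486 and 3418 FPKM in Lf-/- pre-pro-B and 1280 and 1372 FPKM in Lf-/- pro-B cells, most of it Ly6d, with Klk1 at 0 in Lf-/- pre-pro-B replicate 2 (named after its values were seen). In pro-B cells, all 10 MHC class II genes and 8 of 10 plasmacytoid dendritic cell genes past the filter were at least 2-fold higher in Lf-/- cells. So were the 3 conventional dendritic cell genes past it, of 10 listed, and 12.4% of all 10793 genes. Of all genes 2-fold apart there, 91.7% were higher in Lf-/- cells, and 52.5% with median-ratio scaling. Over both stages, 6.48% of all genes were higher at an unadjusted p under 0.05, and 8.82% without Lf-/- pre-pro-B replicate 2. The part of dendritic cells and monocytes in the members' differences was not tested.

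Of 18 neutrophil genes, 4 (Elane, Mpo, Prtn3 and Ctsg) were lower in Lf-/- cells at an unadjusted p under 0.05, as were 75 of all 10793 genes. None of the 18 passed the adjusted threshold in limma's test, and their median was -0.44. The difference was above 0 in 7 of the 18. In pro-B cells, 4 of the 18 (1341 of all 10793 genes) were at least 2-fold higher in Lf-/- cells. By the same rule 4 (121 of all genes) were lower, and the median of the 18 was -0.64. With Lf-/- pre-pro-B replicate 2 left out, 5 were lower, none of them past the adjusted threshold (median -0.28). Because a level is relative to the library's total, a smaller share of these genes raises the FPKM of others, and their part in the members' differences was not tested beyond the scalings given above. Among plasma cell genes, 3 were higher at an unadjusted p under 0.05 with or without Lf-/- pre-pro-B replicate 2, compared with 6.48% and 8.82% of all genes. Of the 8, 7 were tested (median 0.55, and 0.41 without that library). They summed to 839 and 1434 FPKM in WT pre-pro-B, 309 FPKM in WT pro-B, 1717 and 1629 FPKM in Lf-/- pre-pro-B and 408 and 784 FPKM in Lf-/- pro-B cells, with Jchain the most abundant and 2 genes at 0 in Lf-/- pre-pro-B replicate 2. Of 14 T and NK cell genes, 13 were tested over both stages (median 0.44), 1 was lower at an unadjusted p under 0.05 (Nkg7, the most abundant), and 8 were at 0 in Lf-/- pre-pro-B replicate 2. Without that library none was lower and 1 was higher at an unadjusted p under 0.05 (median 0.63). For stage in Lf-/- cells, 7 of the 13 were higher in pro-B cells at an unadjusted p under 0.05 (median 2.04), and 12 without that library (median 2.33). Over all genes, 282 of 10311 were higher, and 624 of 9937 without that library. Some of the 7, Klrb1c among them, reached 1 FPKM in Lf-/- cells only in the pro-B libraries, so the filter favours that direction. These genes summed to 1002 and 1313 FPKM in WT pre-pro-B, 922 FPKM in WT pro-B, 561 and 429 FPKM in Lf-/- pre-pro-B and 532 and 1076 FPKM in Lf-/- pro-B cells. Of 10 monocyte and macrophage genes, with Lyz2 the most abundant, 1 was lower at an unadjusted p under 0.05 (Ly6c2, median of all 0.1), and 1 without Lf-/- pre-pro-B replicate 2 (median -0.14). Of 10 conventional dendritic cell genes only 3 reached the filter, none of which had an unadjusted p under 0.05 with or without Lf-/- pre-pro-B replicate 2 (median 1.15, and 0.48 without it), and 7 were at 0 in that library.

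**Figure D5:**
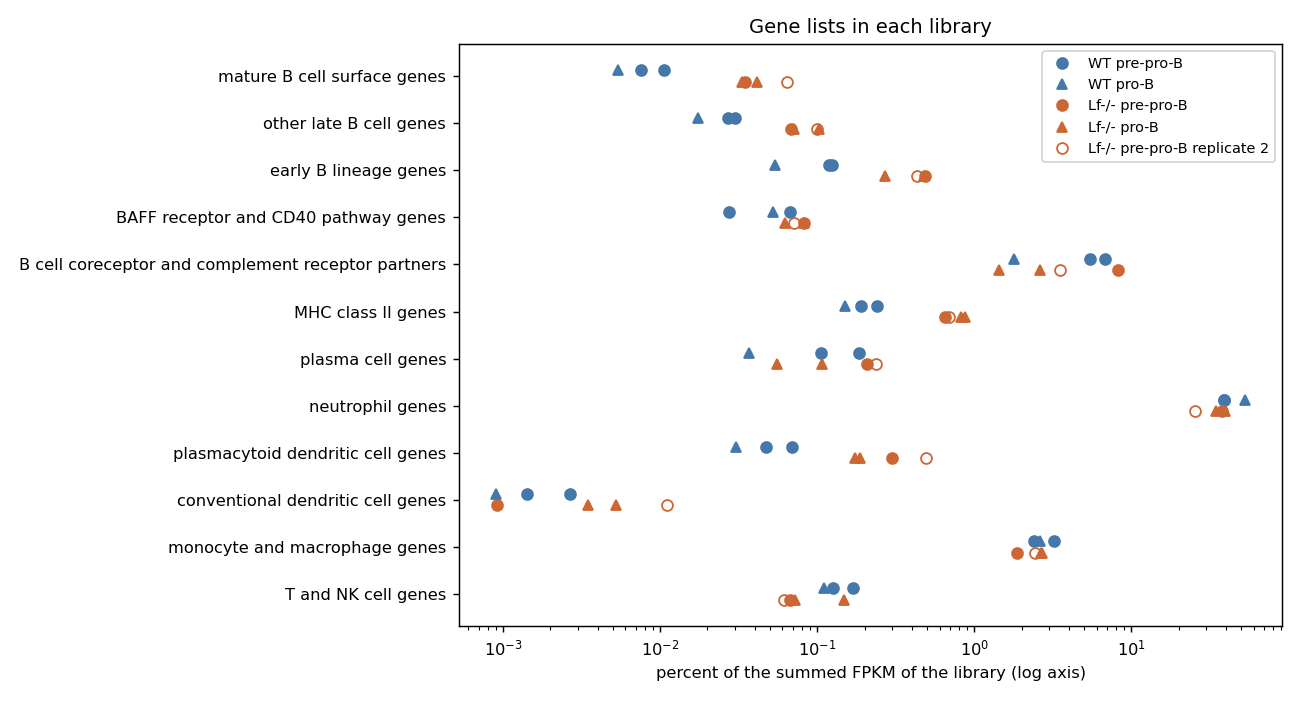
Percent of a library's summed FPKM (log axis) held by each gene list, with WT in blue, Lf-/- in orange, circles for pre-pro-B, triangles for pro-B cells and an open circle for Lf-/- pre-pro-B replicate 2. The 8 members hold 0.00541% to 0.0106% in WT and 0.0332% to 0.0645% in Lf-/- libraries, and neutrophil genes hold 25.3% to 52.8%.

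The genes most like the members in profile were found by Pearson's r between each gene and the mean standardized log2(FPKM + 1) of the 8 members over the 7 libraries, which share the split by genotype and, within it, the library totals. Over 10786 other genes the median r was 0.341. The 10 highest were Hes6 (0.994), Blk (0.993), Stk4 (0.992), Fgd3 (0.99), Elf1 (0.989), Arpc5l (0.989), Bloc1s2 (0.988), Ccm2 (0.987), Hmgn1 (0.985) and Ptprcap (0.983). All had higher levels in every Lf-/- library than in every WT library, as did 9.87% of all 10793 genes. They were picked for likeness to a profile with that split, so this and the calls below for Ptprcap and Blk are not separate results. Their r over the 6 libraries without Lf-/- pre-pro-B replicate 2, an alternative added after seeing the data, was 0.98 to 0.992, the median over 10522 genes was 0.442, and 3 of the 10 (Blk, Hmgn1 and Stk4) were still among the 10 highest. Blk, a kinase of the Src family in B cells, was at 2.4 to 4.52 FPKM in WT and 11.7 to 23.4 FPKM in Lf-/- libraries. Ptprcap, which binds the phosphatase CD45, was at 67.4 to 140 FPKM in WT and 376 to 566 FPKM in Lf-/- libraries and was the one of the 10 that passed the adjusted threshold over both stages (log2 difference 2.21, adjusted p = 0.0288 from limma). With Lf-/- pre-pro-B replicate 2 left out, Ptprcap (2.22, adjusted p = 0.0154) and Blk (1.97, adjusted p = 0.0218) passed.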

How the data were processed

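RNA of sorted pre-pro-B and pro-B cells was sequenced from total RNA on a NovaSeq instrument. The authors deposited 1 value per gene and library, read here as FPKM, since the submitters' processing notes name TopHat, Cufflinks, HTSeq and DESeq on GRCm38, without versions, and the values are not whole numbers. Of 52550 genes, 52403 matched GENCODE M21, which gave positions and transcript lengths. Groups came from the labels, and 7 of 8 samples had a file. The marker definition of the pre-pro-B sort and some list genes are not reported here.

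Genotype in pre-pro-B cells, genotype over both stages and stage in Lf-/- cells were tested with limma 3.58.1 in R 4.3.3 (mean-variance trend, two-sided, Benjamini-Hochberg over all genes tested) on log2(FPKM + 1), keeping genes that reached 1 FPKM in 2 or more of the libraries compared. A gene that reaches 1 FPKM only in the group where it is high passes this filter, which favours that direction in the counts. Pro-B genotypes were compared without a test, called at a log2 difference of 1 with both Lf-/- values on one side. Python 3.11.15, numpy 2.4.6, pandas 2.3.3 and matplotlib 3.10.9 gave the rest. Fragments per gene were estimated from FPKM, depth and the longest coding transcript. Depth came from even steps of FPKM times length in genes with 1 transcript of at least 800 bases, where the strength of the steps passed 7, a minimum set after seeing the data.

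The text names all members, Ltf, from each list at most 4 genes with the largest absolute difference over both stages and at most 3 with the highest mean, and the 10 genes most like the members' profile. Members and lists were chosen with earlier results of these data known. Alternatives were a pseudocount of 0.1, median-ratio scaling, quantile normalization, no filter, at least 1 FPKM in every library, blocking by replicate number, 1 fit of all 7 libraries, the ratio with Cd79a plus Cd79b as denominator or with members weighted equally, and each replicate left out in turn.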

Additional observations from a re-analysis of the deposited data

How the results depend on the processing

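The genotype differences of the 7 members tested kept their direction under every alternative of the fits that included them, except Fcer2a in pre-pro-B cells. Relative to the sum of Cd79a and Cd79b most genes were lower, with every Lf-/- value below every WT value in 83% of all 10793 genes. By the mean log2 difference relative to that sum, another measure, 5 of the 7 members were below 0, Cd37 (-1.51), Fcer2a (-1.05), Tnfrsf13c (-0.23), Fcrla (-0.21) and Cd40 (-0.2). These means include Lf-/- pre-pro-B replicate 2, on which the sign of Fcer2a rests. Fcer2a was at 0.000105 of that sum there, 0.00258 to 0.00732 in the other Lf-/- libraries and 0.0022 to 0.00721 in WT libraries. Cd40 was at 0.00991 there, 0.00109 to 0.00217 in the other Lf-/- libraries and 0.00219 to 0.00375 in WT libraries. The members' median log2 difference was 1.7 to 2.51 in pre-pro-B cells, 2.02 to 3.02 in pro-B cells and 1.96 to 2.56 over both stages. The counts past a threshold varied more, and where no reason is given the cause was not tested.

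Genes with an unadjusted p under 0.05 between genotypes in pre-pro-B cells, 284 as reported, were 649 without a filter and 518 with all 7 libraries in one fit. Genes at least 2-fold apart in pro-B cells, 1462 as reported, were 2853 with a pseudocount of 0.1, 823 with median-ratio scaling and 765 with quantile normalization. The share of them higher in Lf-/- cells was 91.7% as reported, 52.5% with median-ratio scaling and 55.6% with quantile normalization. Genes with an adjusted p under 0.05 over both stages, 20 as reported, were 9 with a pseudocount of 0.1, 7 with median-ratio scaling, 10 with quantile normalization, 0 without a filter in limma's test and 63 with at least 1 FPKM in every library. Of these, 95% were higher in Lf-/- cells as reported, 71.4% with median-ratio scaling and 80% with quantile normalization. Members past that threshold, 3 as reported, were 0 without a filter, where 7 of the 8 members tested, compared with 2.81% of all 27443 genes, were higher at an unadjusted p under 0.05.

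For stage in Lf-/- cells, genes with an unadjusted p under 0.05, 351 as reported, were 171 with a pseudocount of 0.1, 746 without a filter, 143 with at least 1 FPKM in every library and 600 with all 7 libraries in one fit. The share higher in pro-B cells was 80.3% as reported, 66.9% with median-ratio scaling and 68.7% with quantile normalization. The log2 difference of the late to early ratio between genotypes turned from 0.33 to -0.3 with Cd79a plus Cd79b as the denominator.

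With the replicate number as a block, 65 genes and 3 members had an adjusted p under 0.05 between genotypes in pre-pro-B cells and 532 genes an unadjusted one, and for stage 84 genes passed the adjusted threshold, with 701 genes and 1 member at the unadjusted one. Over both stages the block gave 22 genes and 4 members with an adjusted p under 0.05. The pairing was not borne out by the values, since correlations across genes between replicate effects of different groups were -0.013, 0.039 and 0.053. Equal numbers are therefore not treated as pairs.

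Leaving out each replicate in turn gave these ranges. In pre-pro-B cells, genes with an adjusted p under 0.05 numbered 0 to 3338 and with an unadjusted one 140 to 4416, members 0 to 7 and 2 to 7, and the log2 difference of Fcer2a was -0.81 to 1.87. Over both stages, the counts were 0 to 123 genes with an adjusted and 425 to 3033 with an unadjusted p under 0.05, and 0 to 5 members with an adjusted one. For stage in Lf-/- cells they were 10 to 3043 genes with an adjusted and 140 to 4140 with an unadjusted p under 0.05, and 0 to 3 members with either. The members' median stage difference was -0.75 to 0.08, and those of Fcmr -0.75 to 0.53, Cd37 -0.45 to 0.19 and Cd40 -2.32 to 0.08. The highest value of each of these stage differences came without Lf-/- pre-pro-B replicate 2. The highest gene counts in pre-pro-B cells and for stage came without Lf-/- pre-pro-B replicate 1, which leaves the library that stood apart alone in its group, assumed to vary like the others. Depth limits Cr2, at no more than 1.4 fragments in any WT library.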
